A study of Homo sapiens with 6 samples.

Results

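The mitochondrial genome transcripts were the 37 genes that the authors' table of 58735 genes places on the chromosome named MT. By the table's gene types these were 13 protein-coding genes, 2 rRNA genes and 22 tRNA genes. On the plus strand of the table lay 12 of the mRNA genes, both rRNA genes and 14 tRNA genes. MT-ND6 and 8 tRNA genes were listed on the minus strand. RNA had been sequenced from HEK293, an established human embryonic kidney line, stably expressing tensin 2 Y483E, in which a tyrosine is replaced by glutamate, or Y483F, in which the same tyrosine is replaced by phenylalanine. Each group had 3 libraries, replicates 1 to 3, and both groups shared the HEK293 background and the stable expression of a tensin 2 mutant. The labels give no treatment, and the design text mentions 2 cell lines but no clones, so the mutation and the line cannot be told apart. The titles call the replicates biological and do not state separate cultures, so the p-values measure only the spread between these samples.

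Human mitochondrial DNA is a small circle that is copied into long RNAs from both strands by a dedicated RNA polymerase, POLRMT, with the factors TFAM and TFB2M. The tRNAs lie between most of the other genes, and their excision at the 5′ end by RNase P and at the 3′ end by ELAC2 releases the mRNAs and rRNAs. The mRNAs encode core subunits of complexes I, III and IV and of ATP synthase, and most of them receive a poly(A) tail, which completes the stop codon of several. The many other subunits of these complexes, and every protein of mitochondrial transcription and RNA processing, come from nuclear genes.

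The gene positions in the table were those of GENCODE 29 (GRCh38) for 37 of 37 genes, and the sequences printed here come from its transcripts. The 37 genes form 36 neighbouring pairs, of which 26 lay 0 to 3 bases apart and 5 overlapped. The longest overlap, 46 bases at MT:8527-8572, joined MT-ATP8 and MT-ATP6, which encode subunits of ATP synthase. MT-ND4L and MT-ND4, subunits of complex I, shared 7 bases at MT:10760-10766. Reads from these shared stretches cannot be assigned to 1 gene by position, so levels within each pair are uncertain to that extent. The last 60 bases of the upstream gene and the first 60 of the downstream gene are shown for both pairs on the plus strand, 5′ to 3′, with the shared bases in capitals.
MT-ATP8, MT:8513-8572: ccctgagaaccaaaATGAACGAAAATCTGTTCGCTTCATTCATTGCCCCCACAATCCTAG
MT-ATP6, MT:8527-8586: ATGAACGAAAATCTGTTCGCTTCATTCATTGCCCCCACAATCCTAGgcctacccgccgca
MT-ND4L, MT:10707-10766: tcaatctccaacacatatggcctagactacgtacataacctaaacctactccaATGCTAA
MT-ND4, MT:10760-10819: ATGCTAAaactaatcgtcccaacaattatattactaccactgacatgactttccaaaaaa

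The ends of the mRNA genes bear on a measurement made after selection with poly-T beads, because for some of them the genome encodes only the start of the stop codon. Of the 13 mRNA genes, 7 ended in a complete stop codon and 6 in a partial one. The partial ends were a lone T in MT-ND2, MT-CO3, MT-ND3, MT-ND4 and MT-CYB and TA in MT-ND1. The last 30 bases of 6 genes are shown 5′ to 3′ along the gene, with the stop codon or its encoded part in capitals: 3 partial ends, and the 3 complete ends that include AGA and AGG, which are arginine codons in the nuclear code.
MT-ND1, plus strand, MT:4233-4262: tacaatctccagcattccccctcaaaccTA
MT-CO3, plus strand, MT:9961-9990: tgtatgtctccatctattgatgagggtctT
MT-CYB, plus strand, MT:15858-15887: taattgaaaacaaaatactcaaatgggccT
MT-CO2, plus strand, MT:8240-8269: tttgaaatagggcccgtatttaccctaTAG
MT-CO1, plus strand, MT:7416-7445: ttcgaagaacccgtatacataaaatctAGA
MT-ND6, minus strand, MT:14149-14178: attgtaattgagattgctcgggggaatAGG

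Among the tRNA genes, most of the reads fell at 3 listed on the minus strand: MT-TN (tRNA for asparagine), MT-TC (cysteine) and MT-TP (proline). Which strand these reads came from is not clear from the protocol. The 3 genes are printed whole, 5′ to 3′ on the minus strand, beside MT-TW (tryptophan). MT-TW, a neighbour of the MT-TN group on the plus strand, had almost no reads.
MT-TN, minus strand, MT:5657-5729: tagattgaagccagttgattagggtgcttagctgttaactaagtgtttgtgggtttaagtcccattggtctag
MT-TC, minus strand, MT:5761-5826: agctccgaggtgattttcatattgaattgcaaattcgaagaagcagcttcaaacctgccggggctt
MT-TP, minus strand, MT:15956-16023: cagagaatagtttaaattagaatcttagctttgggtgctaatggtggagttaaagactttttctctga
MT-TW, plus strand, MT:5512-5579: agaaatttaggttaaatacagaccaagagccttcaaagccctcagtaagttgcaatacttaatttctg

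Reads at genes totalled between 17204498 and 23284592 per library. Of 6 markers of the labelled HEK293 line, NEFL, IRS4 and VIM had a mean of at least 1 FPKM (fragments per kilobase of gene length, scaled to the library's total). PAX2 (0.984), LHX1 (0.977) and NEFM (0.238) were below it, so the markers bear out the label only in part. Of the fibroblast markers COL1A1 had a mean of 0.667 FPKM, DCN 0.0029 and COL1A2 no read. PTPRC and CD3E, markers of leukocytes, had no read. The submitters number the libraries 1, 4 and 5 in both groups, for replicates 1, 2 and 3, and do not say what the numbers stand for. As described below, the libraries numbered 1 of both lines lay close together for the mitochondrial mRNAs while those numbered 4 and 5 lay far apart, so the results are given over all 6 libraries and over numbers 4 and 5 alone. The comparison of numbers 4 and 5 was chosen with results of these libraries known.

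Mitochondrial genes took 2.11%, 2.15% and 1.23% of reads in the Y483E replicates, in order, and 2.05%, 3.27% and 3.11% in the Y483F replicates. The share was highest in Y483F replicates 2 and 3 and lowest in Y483E replicate 3, and the groups overlapped because Y483F replicate 1 was below Y483E replicates 1 and 2. The group means were 1.83% ± 0.519 (SD, n = 3) in Y483E and 2.81% ± 0.663 (SD, n = 3) in Y483F. Counting error was far smaller than these gaps: the 95% Wilson interval of the share was at most 0.0165 percentage points wide in any library, and it covers counting error only. In bulk RNA, less mitochondrial RNA per cell and fewer cells rich in it cannot be told apart. The mRNAs alone took 1.67%, 1.64% and 0.900% of reads in Y483E and 1.55%, 2.64% and 2.51% in Y483F. The rRNAs took 0.441%, 0.499% and 0.325% in Y483E and 0.497%, 0.623% and 0.600% in Y483F. The tRNA genes took no more than 0.0111% in any library.

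Per length, MT-CO1 and MT-CO2, core subunits of cytochrome c oxidase (complex IV), were the most abundant of the 13 mRNAs. MT-CO1 (MT:5904-7445) measured 2964, 2995 and 1653 FPKM in the Y483E replicates, in order, and 2720, 4775 and 4621 FPKM in the Y483F replicates. It ranked first or second among all genes in each library. MT-CO2 (MT:7586-8269) measured 3041, 3087 and 1734 FPKM in Y483E and 3006, 4492 and 4274 FPKM in Y483F. MT-CO3 (MT:9207-9990), the remaining core subunit encoded here, measured 2232, 2281 and 1240 FPKM in Y483E and 2086, 3667 and 3395 FPKM in Y483F. The pattern over libraries was alike for all 3: Y483E replicate 3 was lowest, Y483F replicates 2 and 3 were highest, and the other 3 libraries lay between and close together, so the groups overlapped.

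Over all 6 libraries the differences between the lines did not pass the test for these genes. The log2 difference, Y483E minus Y483F on the scale of log2(FPKM + 1), was -0.68 ± 0.296 (SE) for MT-CO1, with an adjusted p of 0.416 by limma. MT-CO2 differed by -0.61 ± 0.254 (adjusted p 0.402 by limma) and MT-CO3 by -0.68 ± 0.293 (adjusted p 0.413 by limma). Between the replicates 1 alone the lines differed by 0.12 for MT-CO1 and 0.016 for MT-CO2, in the opposite direction.

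**Figure D1:**
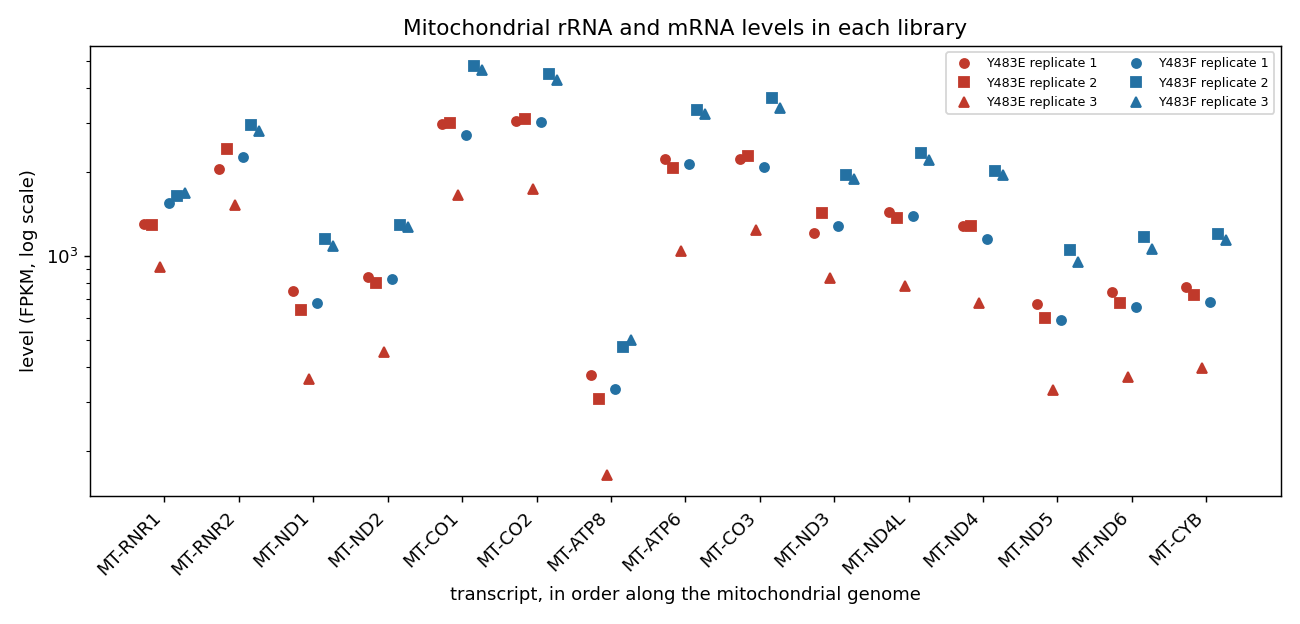
Level in FPKM, on a log axis, of the 2 rRNAs and 13 mRNAs in order along the mitochondrial genome, with 1 point per library (red Y483E, blue Y483F; circle, square and triangle for replicates 1, 2 and 3). For each of these transcripts Y483E replicate 3 is the lowest point and Y483F replicates 2 and 3 are the highest 2.

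MT-ATP6 (MT:8527-9207) and MT-ATP8 (MT:8366-8572) encode the membrane subunits of ATP synthase that remained in the mitochondrial genome, and they overlap as printed above. MT-ATP6 measured 2223, 2073 and 1044 FPKM in Y483E and 2127, 3335 and 3236 FPKM in Y483F. MT-ATP8 had the lowest FPKM of the 13 mRNA genes in every library, at 374, 307 and 164 FPKM in Y483E and 334, 473 and 500.003 FPKM in Y483F. Both genes are read from the same bicistronic mRNA, so this is a value per gene and not the level of a separate mRNA. Again the lowest value was in Y483E replicate 3 and the highest in Y483F replicates 2 and 3, with overlap of the groups through Y483F replicate 1. MT-ATP6 differed by -0.75 ± 0.309 (SE) and MT-ATP8 by -0.69 ± 0.302 (adjusted p 0.400 and 0.419 by limma).

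The 7 complex I mRNAs spanned a wide range of levels. MT-ND4L (MT:10470-10766) measured 1441, 1364 and 779 FPKM in Y483E and 1392, 2333 and 2214 FPKM in Y483F. MT-ND3 (MT:10059-10404) measured 1210, 1422 and 834 FPKM in Y483E and 1282, 1956 and 1889 FPKM in Y483F. MT-ND4 (MT:10760-12137) measured 1280.2, 1279.7 and 681 FPKM in Y483E and 1154, 2020.3 and 1957 FPKM in Y483F. These 3 genes lie next to each other, separated by the MT-TR tRNA gene or overlapping, and were the most abundant of the complex I mRNAs. MT-ND2 (MT:4470-5511) measured 843, 798 and 455 FPKM in Y483E and 826, 1291 and 1265 FPKM in Y483F. MT-ND1 (MT:3307-4262) measured 748, 643 and 361 FPKM in Y483E and 678, 1154 and 1084 FPKM in Y483F. MT-ND5 (MT:12337-14148) measured 673, 598 and 332 FPKM in Y483E and 590.3, 1048 and 950.1 FPKM in Y483F. The groups overlapped for all of them, with the same 2 highest libraries and the same lowest library as for the complex IV mRNAs.

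MT-ND6 (MT:14149-14673), a complex I subunit, is the only mRNA gene listed on the minus strand, and its 3′ end abuts that of MT-ND5. It measured 742, 679.7 and 367 FPKM in Y483E and 658, 1172 and 1057 FPKM in Y483F. Whether the libraries kept the strand is not clear from the protocol, so reads of MT-ND6 and reads from the opposite strand at that position cannot be told apart. MT-CYB (MT:14747-15887), cytochrome b of complex III, measured 772, 727 and 399 FPKM in Y483E and 687, 1195 and 1145 FPKM in Y483F. The differences of the 7 complex I mRNAs ranged from -0.57 ± 0.230 (SE) for MT-ND3 to -0.76 ± 0.303 (SE) for MT-ND1, with adjusted p between 0.364 and 0.425 by limma. MT-CYB differed by -0.69 ± 0.301 (SE), with an adjusted p of 0.416 by limma.

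The rRNAs of the mitochondrial ribosome, MT-RNR1 (12S, MT:648-1601) and MT-RNR2 (16S, MT:1671-3229) carry shorter A tails than most of the mRNAs. MT-RNR1 measured 1299, 1290.1 and 916 FPKM in Y483E and 1543, 1645 and 1681 FPKM in Y483F. All 3 Y483F libraries were above all 3 Y483E libraries, which held for none of the 13 mRNAs and for 7.37% of all genes tested. MT-RNR2 measured 2043, 2407 and 1517 FPKM in Y483E and 2258, 2957 and 2804 FPKM in Y483F, where Y483E replicate 2 was above Y483F replicate 1. MT-RNR1 differed by -0.49 ± 0.137 (SE) and MT-RNR2 by -0.44 ± 0.180 (SE), with adjusted p of 0.302 and 0.395 by limma. Between the replicates 1 alone both rRNAs were lower in Y483E, by -0.25 for MT-RNR1 and -0.15 for MT-RNR2. The SD of the log2 level over the 6 libraries was 0.328 and 0.348 for the rRNAs and between 0.454 and 0.606 for the mRNAs, against a median of 0.0916 over all genes tested.

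In the order of mean level of these 15 transcripts, some neighbours kept their order in every library and others did not. MT-CO1 was above MT-CO2 in 2 of 6 libraries, Y483F replicates 2 and 3, and MT-CO2 was the higher in the other 4. MT-CO2 was above MT-CO3 in 6 of 6. MT-ATP6 was above MT-RNR2, MT-ND3 above MT-RNR1 and MT-ND6 above MT-ND1 in 3 of 6 each, so these neighbours did not differ beyond their spread. The last step, from MT-ND5 to MT-ATP8, was a ratio of means of 1.95 and held in 6 of 6. As MT-ATP8 shares an mRNA with MT-ATP6, this step is one of FPKM per gene.

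The share of each complex in the summed FPKM of the 13 mRNAs varied little, although the sum itself was 18544, 18255 and 10044 FPKM in Y483E and 17541, 28911 and 27587 FPKM in Y483F. Complex I mRNAs made 37.4%, 37.2% and 37.9% of the sum in Y483E and 37.5%, 38.0% and 37.8% in Y483F. Complex IV mRNAs made 44.4%, 45.8% and 46.1% in Y483E and 44.5%, 44.7% and 44.6% in Y483F. The ATP synthase mRNAs made 14.0%, 13.03% and 12.0% in Y483E and 14.0%, 13.2% and 13.5% in Y483F. Thus the sum in Y483E replicate 3 was the lowest of the 6, while the share of each complex moved by a few percentage points at most.

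The tRNA genes, whose mature products carry no poly(A) tail, had few reads, and reads of tRNAs and of uncut precursors cannot be told apart. Whether the libraries kept the strand is not clear. Reads of the minus-strand tRNA genes therefore cannot be told from reads of the opposite strand at the same positions. MT-TN had 325, 555 and 377 reads in the Y483E replicates and 377, 544 and 575 in the Y483F replicates. MT-TC had 241, 528 and 355 reads in Y483E and 303, 501 and 494 in Y483F. MT-TP had 283, 373 and 230 reads in Y483E and 353, 395 and 389 in Y483F. Together these 3 genes held between 72.4% and 83.7% of the reads at the 22 tRNA genes. MT-TN and MT-TC lie in a cluster of 5 tRNA genes between MT-ND2 and MT-CO1, all but MT-TW on the minus strand. Within it MT-TW had 0, 3 and 0 reads in Y483E and 0, 1 and 0 in Y483F, MT-TA at most 9 reads and MT-TY between 10 and 48.

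The next genes by mean reads were MT-TH (histidine), MT-TL1 (leucine) and MT-TR (arginine), all on the plus strand between or beside mRNA or rRNA genes. MT-TH had 103, 109 and 50 reads in Y483E and 71, 162 and 140 in Y483F. MT-TL1 had 68, 70 and 37 reads in Y483E and 61, 105 and 101 in Y483F, and MT-TR had 41, 35 and 26 in Y483E and 24, 50 and 57 in Y483F. In these 3 genes, as in the mRNAs, Y483F replicates 2 and 3 were highest. MT-TF, the first gene after the control region, had 1 read in all 6 libraries together. Y483E replicate 3 had 6 tRNA genes with no read, the most of any library, and Y483F replicate 2 had 0 such genes. With no read counted, up to 3 may have been present by counting error alone.

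**Figure D2:**
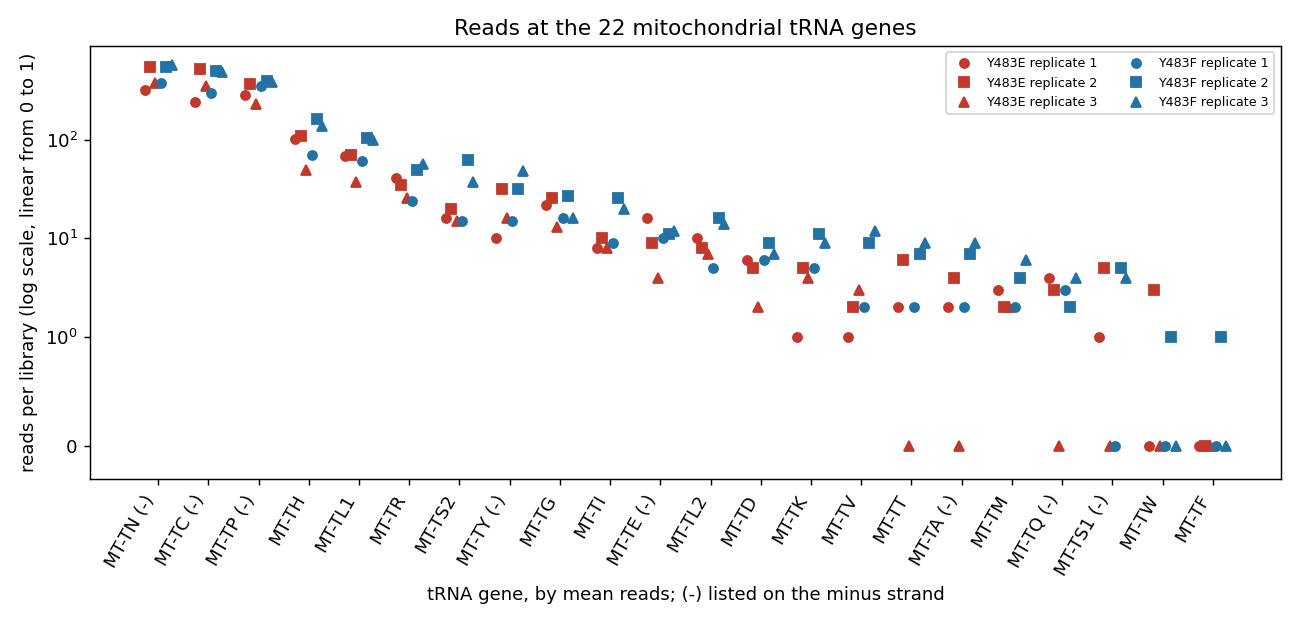
Reads per library at the 22 tRNA genes, ordered by mean reads, on an axis that is logarithmic above 1 and linear from 0 to 1 (red Y483E, blue Y483F; circle, square and triangle for replicates 1, 2 and 3). MT-TN, MT-TC and MT-TP lie between 230 and 575 reads, and most other genes lie below 100.

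The 3 abundant minus-strand tRNA genes varied less with the library than the mRNAs did. Their SD of the log2 level over the 6 libraries was 0.278 for MT-TN, 0.371 for MT-TC and 0.300 for MT-TP. Per 1000 mRNA reads, MT-TN, MT-TC and MT-TP together had 2.85, 3.81 and 5.81 reads in Y483E and 3.88, 3.06 and 2.87 in Y483F. The ratio was highest in Y483E replicate 3, the library with the fewest mRNA reads, and those reads are its divisor. The other 19 tRNA genes together had 1.05, 0.927 and 1.13 reads per 1000 mRNA reads in Y483E and 0.931, 1.16 and 0.994 in Y483F. Thus the reads of the other tRNA genes kept nearly the same proportion to the mRNA reads in all 6 libraries, and those of the 3 genes did not.

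For MT-TP, all 3 Y483F libraries, at 303, 323 and 281 FPKM, were above all 3 Y483E libraries, at 233, 235 and 184 FPKM. The difference was -0.48 ± 0.104 (SE), with an adjusted p of 0.257 by limma. DESeq2 on the reads gave MT-TP an adjusted p of 0.0380, and it was the only mitochondrial gene that DESeq2 called, where 0.455% of all genes with reads were called in either direction. The authors' deposited table gives MT-TP a log2 fold change of -0.47 with an adjusted p of 0.0442, from the same libraries and so not separate evidence. The authors' deposited table, which lists genes with an unadjusted p under 0.05, holds 12 mitochondrial genes, all lower in Y483E, where it lists 2.83% of all genes with reads as lower. MT-RNR1 has an adjusted p of 0.123 in the authors' deposited table, and MT-TP is the only one of the 12 under 0.05 there.

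Across the genome, 35 of the 37 genes passed the filter on low values and were tested over the 6 libraries. The estimates of all 35 were lower in Y483E, where 47.2% of all genes tested were, although quantile normalization turned MT-CO2 (0.055) and MT-RNR2 (0.068) the other way. That scaling gives each rank the same value in every library. It therefore compresses differences among the most abundant genes by design and cannot decide their direction. The median log2 difference was -0.69 over the 13 mRNAs, -0.47 over the 2 rRNAs and -0.57 over the 20 tRNAs tested, against 0.0070 over all genes tested. None passed an adjusted p of 0.05 by limma, which called 0% of all genes. At an unadjusted p under 0.05, limma held 17 of the 35 (6 mRNAs, 2 rRNAs and 9 tRNAs), against 5.7% of all genes that were lower in Y483E at that level. edgeR on the reads called 0 of the 26 mitochondrial genes it tested, and 0.0438% of all genes. At an unadjusted p under 0.05, edgeR held 19 of the 26, all lower in Y483E, where 7.61% of all genes were lower at that level. The mitochondrial mRNAs moved together from library to library, so such counts are not of independent genes. The Y483F libraries lay wholly above the Y483E libraries for 5 of the 35 (MT-RNR1, MT-TI, MT-TD, MT-TK and MT-TP), as they did for 7.37% of all genes tested. Of these, MT-TI, MT-TD and MT-TK had no more than 26 reads in any library. MT-TD had 6 reads in replicate 1 of both lines, so counting error limits these separations.

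These differences rested on particular libraries. Without Y483E replicate 3 the median over the 13 mRNAs was -0.39. Under quantile normalization of all 6 libraries, which compresses differences among the most abundant genes, it was -0.44. Without Y483F replicate 1, edgeR called 20 of the 37 mitochondrial genes, not all of them tested, as lower in Y483E. It called 4.27% of all genes tested as lower there. Leaving out any other single library gave 0 mitochondrial calls by edgeR. With array weights, which give less weight to libraries that vary more, limma called 26 of the 35 as lower (13 mRNAs, 1 rRNA and 12 tRNAs), beside 7.39% of all genes.

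**Figure D3:**
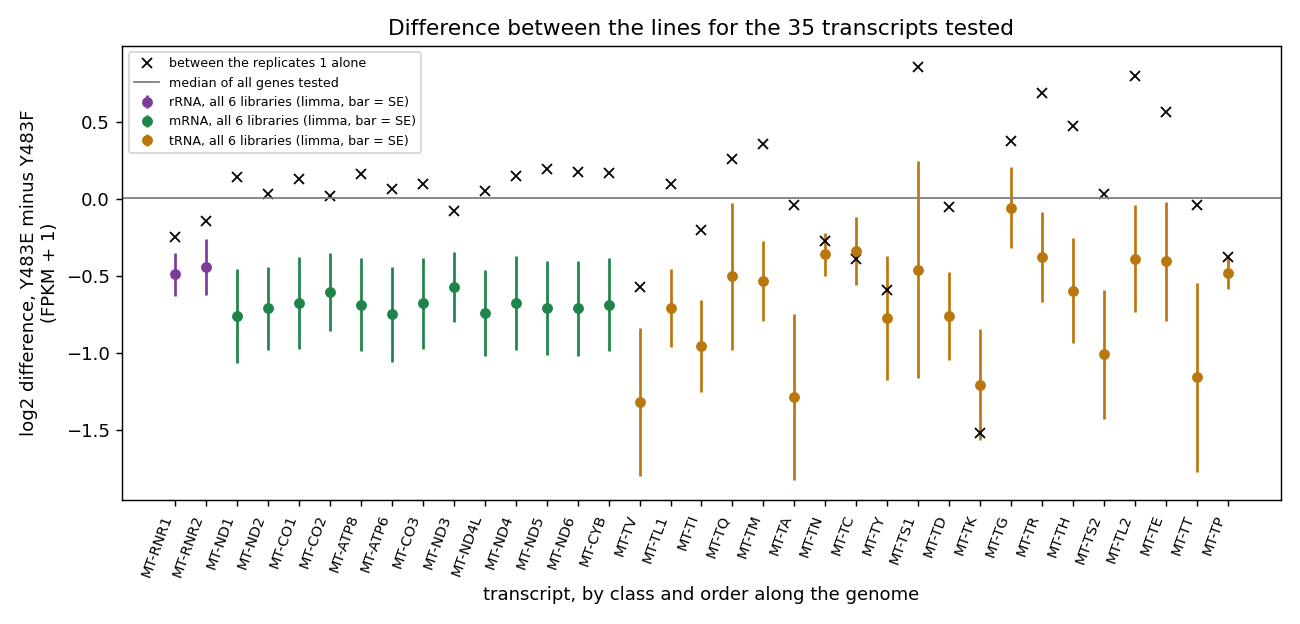
Difference between the lines in log2(FPKM + 1), Y483E minus Y483F, for the 35 mitochondrial transcripts tested. Circles are limma estimates over all 6 libraries with their SE, crosses the difference between the replicates 1 alone, and the grey line is the median of all genes tested. All circles lie below the line, while the crosses of 12 of the 13 mRNAs lie above it.

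In the libraries numbered 4 and 5, the mitochondrial mRNAs were lower together in Y483E than in Y483F. Their median log2 deviation from the mean of the libraries was -0.085 in Y483E replicate 2, near the replicates 1 (-0.034 in Y483E, -0.10 in Y483F). It was -0.94 in Y483E replicate 3, and 0.62 and 0.56 in Y483F replicates 2 and 3. edgeR called 23 of the 27 mitochondrial genes it tested as lower and 0 as higher: 13 of 13 mRNAs, 2 of 2 rRNAs and 8 of 12 tRNAs, where it called 7.98% of all genes as lower. The mRNAs fell by between 0.77 (MT-ND3, SE 0.146, adjusted p 0.00265 by edgeR) and 1.16 (MT-ND1, SE 0.159, adjusted p 0.000251 by edgeR) on the log2 scale. MT-RNR1 fell by 0.60 and MT-RNR2 fell by 0.56 (adjusted p 0.00111 and 0.0101 by edgeR). Of the abundant tRNA genes, MT-TH fell by 1.07 and MT-TL1 fell by 1.08, whereas MT-TN fell by 0.40, MT-TC fell by 0.31 and MT-TP fell by 0.52. limma on the same 4 libraries called 7 of 35, where it called 2.88% of all genes as lower. All 7 were plus-strand tRNA genes with few reads, with means over all libraries between 3.17 (MT-TM) and 73.7 (MT-TL1). No mRNA was called, although the median difference of the mRNAs was -1.11. With 2 libraries a line and mRNAs that moved together, these values and counts rest on a small sample. These libraries were compared alone because the mitochondrial mRNAs had been seen to lie far apart in them. The values thus give the size of that pattern and are not separate evidence of it.

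Between the replicates 1, the 13 mRNAs had a median log2 difference of 0.12 and the 2 rRNAs one of -0.20. The interaction of line and library number was fitted by edgeR, with the lone replicate 1 of each line assumed to vary like the others. The grouping of number 1 against 4 and 5 was chosen because these libraries had been seen to lie apart, so the fit gives the size of that pattern and is not separate evidence of it. The interaction passed for 10 of the 26 genes tested, all more negative in numbers 4 and 5, where 1.61% of all genes passed in that direction. The 10 were 9 of the 13 mRNAs, led by MT-ND1 at -1.31 (adjusted p 0.0185 by edgeR), and MT-TH. Neither rRNA passed, with a median of -0.39, and the minus-strand tRNA genes, with a median of -0.15, held none that passed. By limma the interaction passed for MT-TR alone, at -1.59 ± 0.0706 (SE, adjusted p 0.0136 by limma), where 0.0312% of all genes passed in that direction. MT-TR had between 24 and 57 reads per library, and edgeR on these reads gave its interaction as -1.65 with a much larger SE of 0.469. The limma call for MT-TR thus rests on few reads and a small spread between libraries, and edgeR did not pass it. For the 10 that passed by edgeR, the adjusted p by limma lay between 0.251 and 0.317, so none passed by both tools.

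Ratios between transcripts of 1 library do not depend on how that library was scaled, and 15 pairs were compared. MT-ND1 over MT-RNR2, neighbours across the MT-TL1 gene, had the widest range, at 0.366, 0.267 and 0.238 in Y483E and 0.300, 0.390 and 0.386 in Y483F. It was lowest in Y483E replicates 2 and 3 and highest in Y483F replicates 2 and 3, with the replicates 1 in the reverse order, so the groups overlapped. The difference in log2 ratio was -0.32 over all libraries, 0.29 between the replicates 1 and -0.62 in numbers 4 and 5 (exact permutation p = 0.2, adjusted p 0.75 over the 15 pairs).

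Pairs of mRNAs held much closer. MT-ND6 over MT-ND5, listed on opposite strands, lay between 1.10 and 1.14 in all 6 libraries, the narrowest range of the 15 pairs. MT-CO3 over MT-CO1 lay between 0.735 and 0.768. MT-CO2 over MT-CO1 was 1.03, 1.03 and 1.05 in Y483E and 1.11, 0.941 and 0.925 in Y483F, below 1 in the libraries with the most mitochondrial reads (exact permutation p = 0.4). MT-ATP6 over MT-CO2 was 0.731, 0.671 and 0.602 in Y483E and 0.707, 0.742 and 0.757 in Y483F, lowest in Y483E replicate 3 (exact permutation p = 0.2).

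The pairs with the 2 longest overlaps, printed above, kept their order in every library. MT-ATP8 over MT-ATP6 was 0.168, 0.148 and 0.157 in Y483E and 0.157, 0.142 and 0.155 in Y483F, although both are read from the same bicistronic mRNA. MT-ND4L over MT-ND4 was 1.13, 1.07 and 1.14 in Y483E and 1.21, 1.15 and 1.13 in Y483F. A gene's FPKM depends on its length and on how reads across its ends and over the shared bases were counted, and the part of these in either ratio was not tested. The rRNAs, MT-RNR2 over MT-RNR1, stood at ratios of 1.57, 1.87 and 1.66 in Y483E and 1.46, 1.80 and 1.67 in Y483F, lowest in the replicates 1 of both lines.

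None of the 15 ratios separated the lines: 0 pairs had groups that did not overlap, the smallest exact permutation p was 0.2 where 3 libraries against 3 can reach 0.1 at best, and the smallest adjusted p was 0.75. Only 4 of the 15 differed in the same direction between the replicates 1 as in numbers 4 and 5.

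**Figure D4:**
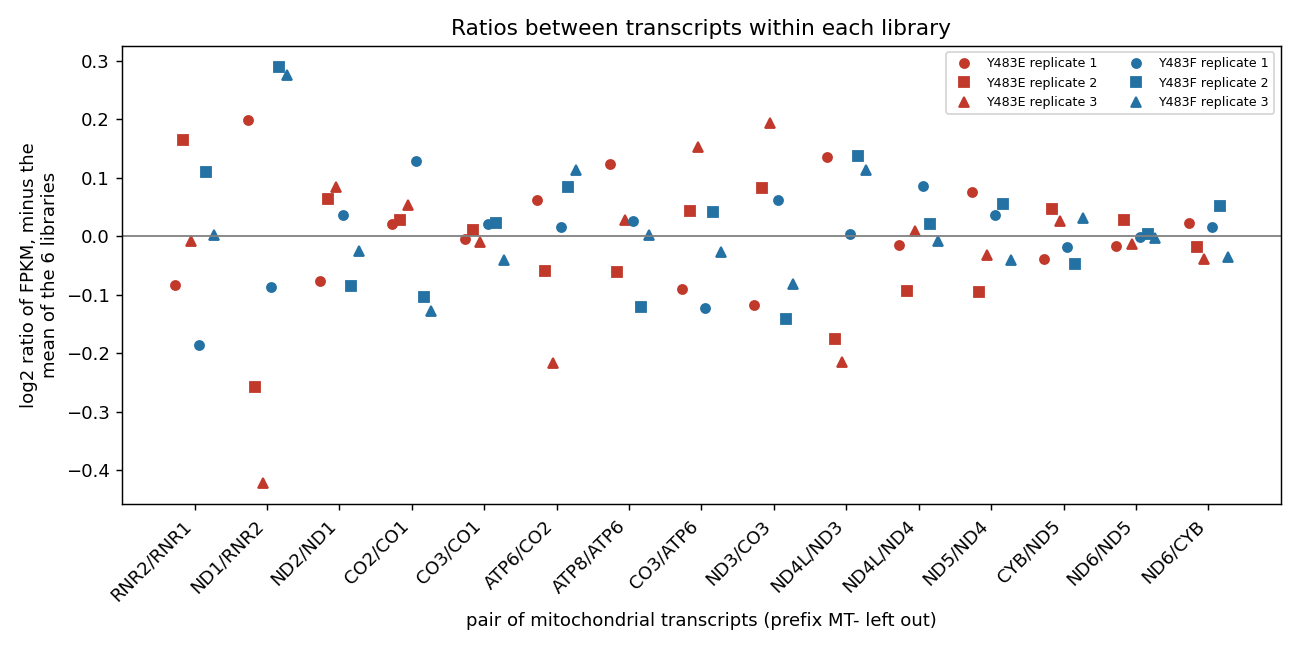
Log2 ratio of FPKM between 15 pairs of mitochondrial transcripts in each library, minus the mean over the 6 libraries (red Y483E, blue Y483F; circle, square and triangle for replicates 1, 2 and 3). MT-ND1 over MT-RNR2 spreads most, with Y483E replicate 3 lowest, and MT-ND6 over MT-ND5 spreads least.

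Between classes, rRNA reads numbered 265.1, 304.4 and 360.6 per 1000 mRNA reads in Y483E and 320.9, 236.2 and 239.4 in Y483F. This ratio ran against the mitochondrial share of reads: it was highest in Y483E replicate 3, which had the lowest share, and lowest in Y483F replicates 2 and 3. The mRNAs, its divisor, made between 73.1% and 80.6% of the mitochondrial reads in each library, so the ratio and the share are linked by construction. The group means of 310 ± 48.0 (SD, n = 3) in Y483E and 265 ± 48.0 (SD, n = 3) in Y483F differed by less than the SD of either group.

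Nuclear copies of mitochondrial genes, insertions that resemble the originals, can share reads with them. Of 407 genes named as such copies, 362 had no read and 3 had a mean of at least 1 FPKM, all on chromosome 1 (GRCh38). MTATP6P1 (chr1:633696-634376) measured 180, 153 and 79.1 FPKM in Y483E and 171, 268 and 256 FPKM in Y483F, between 7.39% and 8.10% of MT-ATP6 in each library. MTND2P28 measured 58.4, 50.9 and 31.0 FPKM in Y483E and 53.8, 78.0 and 72.4 FPKM in Y483F, between 5.72% and 6.93% of MT-ND2. MTCO1P12 stayed between 0.292% and 0.407% of MT-CO1. The copies thus followed their mitochondrial counterparts from library to library. Their own values are uncertain, since reads that fit both places cannot be assigned by sequence, and the copies held between 7.81 and 9.54 reads per 1000 mitochondrial reads.

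Among nuclear genes that make and handle mitochondrial RNA, the lists described here held 0 genes called by limma or edgeR over all 6 libraries. Of the 9 transcription genes, 7 were lower in Y483E and 2 higher, with a median of -0.027. POLRMT, the polymerase, measured 25.5, 24.4 and 24.5 FPKM in Y483E and 25.6, 24.4 and 24.6 FPKM in Y483F, a difference of -0.0040 ± 0.0418 (SE) in log2 (adjusted p 0.979 by limma). TFAM, which packages mitochondrial DNA and starts transcription, measured 44.0, 39.9 and 40.9 FPKM in Y483E and 48.7, 41.9 and 40.8 FPKM in Y483F. Neither followed the mitochondrial mRNAs, which were at their lowest in Y483E replicate 3 and at their highest in Y483F replicates 2 and 3.

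Of 21 genes for processing and stability of mitochondrial RNA, 16 were lower and 5 higher, with a median of -0.036. The most abundant were HSD17B10, a subunit of mitochondrial RNase P, at 129 to 135 FPKM in Y483E and 119 to 129 FPKM in Y483F, and ELAC2, which cuts tRNA 3′ ends, at 31.0 to 36.3 and 32.6 to 35.6 FPKM. Among 14 genes for modification of tRNA and rRNA the median was -0.023, led in level by NSUN2 and GTPBP3. Among 14 genes of mitochondrial DNA replication it was -0.029, led by SSBP1 and POLG, and among the 8 tested of 9 regulators of biogenesis it was -0.056, led by MYC and YY1.

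In the libraries numbered 4 and 5 some of these genes passed the test by edgeR, all as lower in Y483E and named here because they passed. They were 0 of the transcription genes, 3 for processing (PRORP, FASTK and FASTKD5), 5 for modification (TRMU, GTPBP3, PUS1, NSUN2 and METTL17), 3 for replication (POLG, TWNK and MGME1) and 4 of biogenesis (PPARGC1B, PPRC1, GABPA and MYC). PRORP, the nuclease subunit of mitochondrial RNase P, was lower by 0.63 (SE 0.127, adjusted p 0.00364 by edgeR), with a mean of 1.29 FPKM over all libraries. Each of the other 14 was lower by less than 0.40. List by list, the share called is to be read against the 7.98% of all genes called as lower.

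The nuclear genes for the same enzyme complexes had medians near 0. Over all 6 libraries the median log2 difference was 0.017 over 36 complex I genes, 0.033 over 9 of complex III, 0.064 over 11 of complex IV and 0.036 over 15 of ATP synthase, with 0 called by limma or edgeR. The most abundant were NDUFS5 and NDUFB7 of complex I, UQCRH and UQCRQ of complex III, COX6B1 and COX5A of complex IV, and ATP5F1B and ATP5F1C of ATP synthase. Complex II, which has no mitochondrially encoded subunit, had a median of 0.021 over 4 genes, led in level by SDHB and SDHA. In the libraries numbered 4 and 5, edgeR called 3, 1, 6 and 5 genes of these lists as higher in Y483E, where it called 7.07% of all genes as higher. They were NDUFB7, NDUFB11 and NDUFS5 of complex I, UQCRQ of complex III, and COX4I1, COX5B, COX6B1, COX7A2, COX8A and NDUFA4 of complex IV. Those of ATP synthase were ATP5F1A, ATP5F1B, ATP5MC2, ATP5MC3 and ATP5MF, while ATP5PO was called as lower. These genes are named because they passed. COX6B1, the most abundant nuclear gene of complex IV, measured 260, 287 and 289 FPKM in Y483E and 277, 260 and 267 FPKM in Y483F, without the drop of MT-CO1 in Y483E replicate 3.

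Some other RNAs were high and low in the same libraries as the mitochondrial transcripts, and others were not. The median log2 deviation of the 13 mRNAs from their mean over the 6 libraries was -0.034, -0.085 and -0.94 in the Y483E replicates. In the Y483F replicates it was -0.10, 0.62 and 0.56. For MALAT1 and NEAT1, long RNAs kept in the nucleus, it was -0.22, -0.031 and -0.40 in Y483E and -0.37, 0.63 and 0.39 in Y483F. NEAT1 measured 5.91, 6.88 and 4.94 FPKM in Y483E and 5.62, 12.8 and 10.6 FPKM in Y483F. MALAT1 measured 3.20, 3.80 and 2.81 FPKM in Y483E and 2.57, 5.91 and 4.90 FPKM in Y483F, lowest in Y483F replicate 1. For 61 small nucleolar RNA genes, which lack a poly(A) tail, the median deviation was -0.19, -0.10 and -0.33 in Y483E and -0.083, 0.35 and 0.26 in Y483F. By these medians, Y483E replicate 3 was lowest and Y483F replicates 2 and 3 were highest in the 3 groups. For 19 genes of the histone clusters, most of whose mRNAs also lack a poly(A) tail, it was 0.094, -0.015 and 0.044 in Y483E and -0.019, -0.084 and 0.12 in Y483F, without that pattern. Of small RNAs listed as without a poly(A) tail, 2 were tested by limma, 1 estimated higher and 1 lower in Y483E, and neither passed. RN7SL2, the RNA of the signal recognition particle, was the higher, at 31.7, 29.5 and 25.5 FPKM in Y483E and 15.4, 19.3 and 25.2 FPKM in Y483F. RNU5A-1 was the lower, at 1.93, 0 and 0.468 FPKM in Y483E and 1.51, 3.35 and 1.69 FPKM in Y483F, values near the filter. Neither was lowest in Y483E replicate 3. The part of RNA quality, poly(A) selection or cell state in the mitochondrial differences was not tested.

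**Figure D5:**
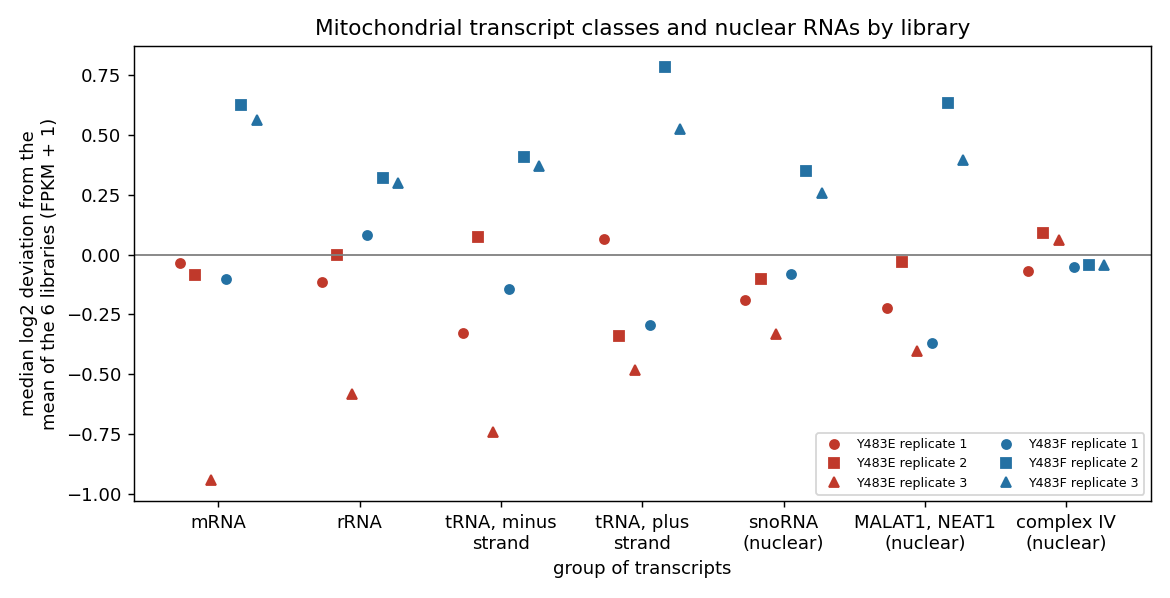
Median log2 deviation from the mean of the 6 libraries, on the scale of log2(FPKM + 1), for 4 classes of mitochondrial transcripts and 3 groups of nuclear RNAs (red Y483E, blue Y483F; circle, square and triangle for replicates 1, 2 and 3). Y483F replicates 2 and 3 are the highest points in the first 6 groups, and the complex IV nuclear genes stay near 0.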

How the data were processed

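RNA selected on poly-T beads from 6 libraries was measured. The submitters' processing notes list DESeq, DESeq2, featureCounts 1.5.0-p3, StringTie 1.3.3b and HISAT2 2.0.5 and give them no roles. A build and the strandedness are not given in the sources used. The authors deposited 1 table of FPKM and gene length, and a second table for 1652 genes. Per the file headers, this second deposited table holds read counts, FPKM, a signal of counts normalized per library, log2 fold changes, and unadjusted and adjusted p-values of Y483E over Y483F.

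Reads were recovered from FPKM, gene length and a library total. They were whole within 0.01 read for 100% of values above 0 and equalled the authors' counts for 1652 of 1652 listed genes, from which the totals had been worked out. The main test was limma 3.58.1 (eBayes with a trend) on log2(FPKM + 1) for the 12833 genes whose mean reached 1 FPKM, two-sided, with Benjamini-Hochberg adjustment over all genes and a threshold of 0.05. edgeR 4.0.16 (quasi-likelihood, TMM) and DESeq2 1.42.0 were run on the recovered reads. Simulated data, with 5 seeds, took the means and depths of these libraries but gave all genes 1 fixed dispersion and no library effect. There limma recovered 99.2% and edgeR 91.6% of genes changed by 1 on the log2 scale, with 9.93% and 5.47% false among calls. These rates do not give the power for the mitochondrial mRNAs, whose log2 levels had an SD between 0.454 and 0.606 over the 6 libraries. Exact permutation tests of the ratios were two-sided.

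The members and lists were chosen with earlier results of these data known. All mRNA and rRNA genes were named, the 6 tRNA genes with the most reads, and of each nuclear list the genes called over all 6 libraries or, as there were none, the 2 with the highest mean FPKM; other genes named were chosen after their values were seen. The edgeR fits on fewer libraries were added after seeing the data, and the interaction was chosen with the libraries numbered 1 known to lie together. Same-numbered libraries were not shown to be pairs. Other settings were another pseudocount and filter, other scalings, array weights, a batch term, a replicate block, and leaving out each library.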

Additional observations from a re-analysis of the deposited data

Results flagged for a closer look

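For 10 mitochondrial transcripts the difference between the lines in the libraries numbered 4 and 5 differed from that between the libraries numbered 1, by edgeR's interaction term with Benjamini-Hochberg adjustment over all genes. The term, in log2 and negative where Y483E was relatively lower in numbers 4 and 5, was -1.31 for MT-ND1 (adjusted p 0.0185 by edgeR), -1.30 for MT-ND5 (0.0221), -1.27 for MT-ND6 (0.0298), -1.23 for MT-CYB (0.0310) and -1.20 for MT-ATP8 (0.0332). It was -1.18 for MT-ND4 (adjusted p 0.0450 by edgeR), -1.15 for MT-CO1 (0.0403), -1.14 for MT-ND4L (0.0317), -1.07 for MT-ND2 (0.0435) and -1.55 for MT-TH (0.0488). Each line has 1 library numbered 1, which is assumed to vary like the others. By limma, the main test, none of the 10 passed, with adjusted p between 0.251 and 0.317. The grouping by number was chosen with this pattern already seen. What the numbers stand for is not stated in the labels, and a cause was not tested.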

How the results depend on the processing

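Over the 6 libraries limma called 0 mitochondrial genes, and leaving out each library in turn gave 0 to 0. Array weights gave 26 calls, the libraries numbered 4 and 5 alone 7, and DESeq2 1, and for each the cause was not tested. edgeR called 0, with 0 to 20 on leaving out each library (20 without Y483F replicate 1) and 23 in numbers 4 and 5 alone. The replicate block gave 0 calls by limma and by edgeR and left the mRNA median at -0.69. Same-numbered libraries correlated at 0.056, 0.14 and -0.095 in their deviations, so the numbers are not shown to pair them. The mRNA median ranged from -0.39 to -0.94 on leaving out each library and was -1.11 in numbers 4 and 5.

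Of 375 values for 21 transcripts under other settings, 352 kept their direction and side of the threshold and 21 passed it newly. The 2 that reversed, MT-CO2 (0.055) and MT-RNR2 (0.068), did so under quantile normalization. That scaling gives each rank the same value in every library, so it cannot decide the direction of the most abundant genes. Differences in log2 ratio near 0 also changed sign: MT-CO3 over MT-CO1 was 0.0089 and MT-ND6 over MT-ND5 0.0070 in numbers 4 and 5. On leaving out each library the ratio differences ranged from -0.032 to 0.12 for MT-RNR2 over MT-RNR1, -0.024 to 0.0080 for MT-CO3 over MT-CO1, -0.081 to 0.0044 for MT-ND5 over MT-ND4, and -0.014 to 0.0076 for MT-ND6 over MT-ND5.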
